A study of Mus musculus with 16 samples.

Results

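The transcripts described here are those of 10 genes that supply, bind and recycle actin monomers: the cytoplasmic actins Actb and Actg1, the profilins Pfn1 and Pfn2, the β-thymosins Tmsb4x and Tmsb10, the filament-severing proteins Cfl1, Cfl2 and Dstn, and the capping protein subunit Capzb. They were chosen by name, as the actin counterpart of the microtubule genes, with earlier results of these data known. Each symbol matched 1 of the 53801 genes of the count table. RNA was sequenced from tissue labelled cortex and striatum of 9 mice of mixed C57BL6/J and 129sv background at 10 days of age, in 16 libraries, and 7 of the mice gave both tissues. The 4 control libraries of each tissue came from mice with 1 floxed Trrap allele, and the 4 Trrap-FBΔ libraries from mice with floxed alleles only, while both groups carried the Camk2-Cre transgene. The study names a Camk2a-driven Cre line meant to act in glutamatergic neurons of the forebrain, so the tissue also holds cells in which no deletion is intended, and the controls can lose their single floxed allele. Controls were 2 females and 2 males in the cortex and 1 female and 3 males in the striatum, and each Trrap-FBΔ group was 3 females and 1 male.

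Between 28743866 and 48761429 reads were counted on genes per library. Trrap, which encodes a scaffold of histone acetyltransferase complexes, was not called between the groups at the RNA level. Trrap RNA had a log2 fold change of -0.18 in cortex and of -0.04 in striatum (edgeR adjusted p = 0.0826 and 0.519). These counts cover the whole gene in mixed tissue and do not test the deletion itself, which the study assessed by western blot and qPCR. The groups are named below by their labels. Striatal projection neuron markers did not set the tissues apart either. Of 8 such markers, 1 was higher in striatum than in cortex of controls, beside 22.5% of all genes tested higher and 22% lower. The summed level of the 8 in CPM, counts scaled to library size, ran from 217 to 1117 in control striata and from 254.5 to 695 CPM in control cortices. Of 7 excitatory neuron markers, 6 were lower in the libraries labelled striatum and 1, Slc17a6, was higher, at 58.9 ± 12.6 CPM in control cortex and 273 ± 63.8 in control striatum (SD, n = 4).

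Actin filaments grow by adding ATP-bound monomers at one end and lose ADP-bound monomers at the other. Cofilins and destrin sever older filaments, profilins recharge the released monomers with ATP and deliver them to growing ends, β-thymosins hold monomers in reserve, and capping protein closes the growing end. In developing neurons this cycle drives growth cones, dendritic spines and migration, and β-actin is also a common loading or reference standard, including in the study that produced these libraries.

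In both tissues most of the 10 genes were lower in Trrap-FBΔ than in control libraries, and none was called higher. In the cortex 7 of 10 fell and 3 did not pass the test, where 17.6% of the 18268 genes tested were lower (33.3% were called in either direction). In the striatum 8 of 10 fell and 2 did not pass, where 15.8% of 18872 genes were lower (30.2% in either direction). These are edgeR quasi-likelihood calls at a Benjamini-Hochberg adjusted p under 0.05 over all genes. The shares stand beside the counts as a description, since the 10 genes were chosen with earlier results of these data known. The 10 genes had a median log2 fold change of -0.40 (cortex) and -0.32 (striatum), beside 0.0010 and -0.0055 over all genes tested. The same 7 genes, Actb, Actg1, Cfl2, Dstn, Pfn1, Tmsb4x and Tmsb10, fell in both tissues, as did 10.5% of the 17938 genes tested in both (8.47% rose in both). Groups did not overlap for 6 of the 10 genes in cortex and for 8 in striatum, all lower. Over all genes tested, groups were apart for 32.7% in the cortex (16.8% lower) and 31.6% in the striatum (16% lower). Together the 10 genes took a median of 0.333% of all counts in control cortex and 0.281% in Trrap-FBΔ cortex, and of 0.298% and 0.25% in the respective striata. In whole tissue, fewer cells of a type and less RNA per cell cannot be told apart. Scaled by library totals alone, the calls over all genes shifted from 2872 higher and 3218 lower to 4322 and 2197 in the cortex, and from 2725 and 2979 to 4445 and 1846 in the striatum.

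**Figure D1:**
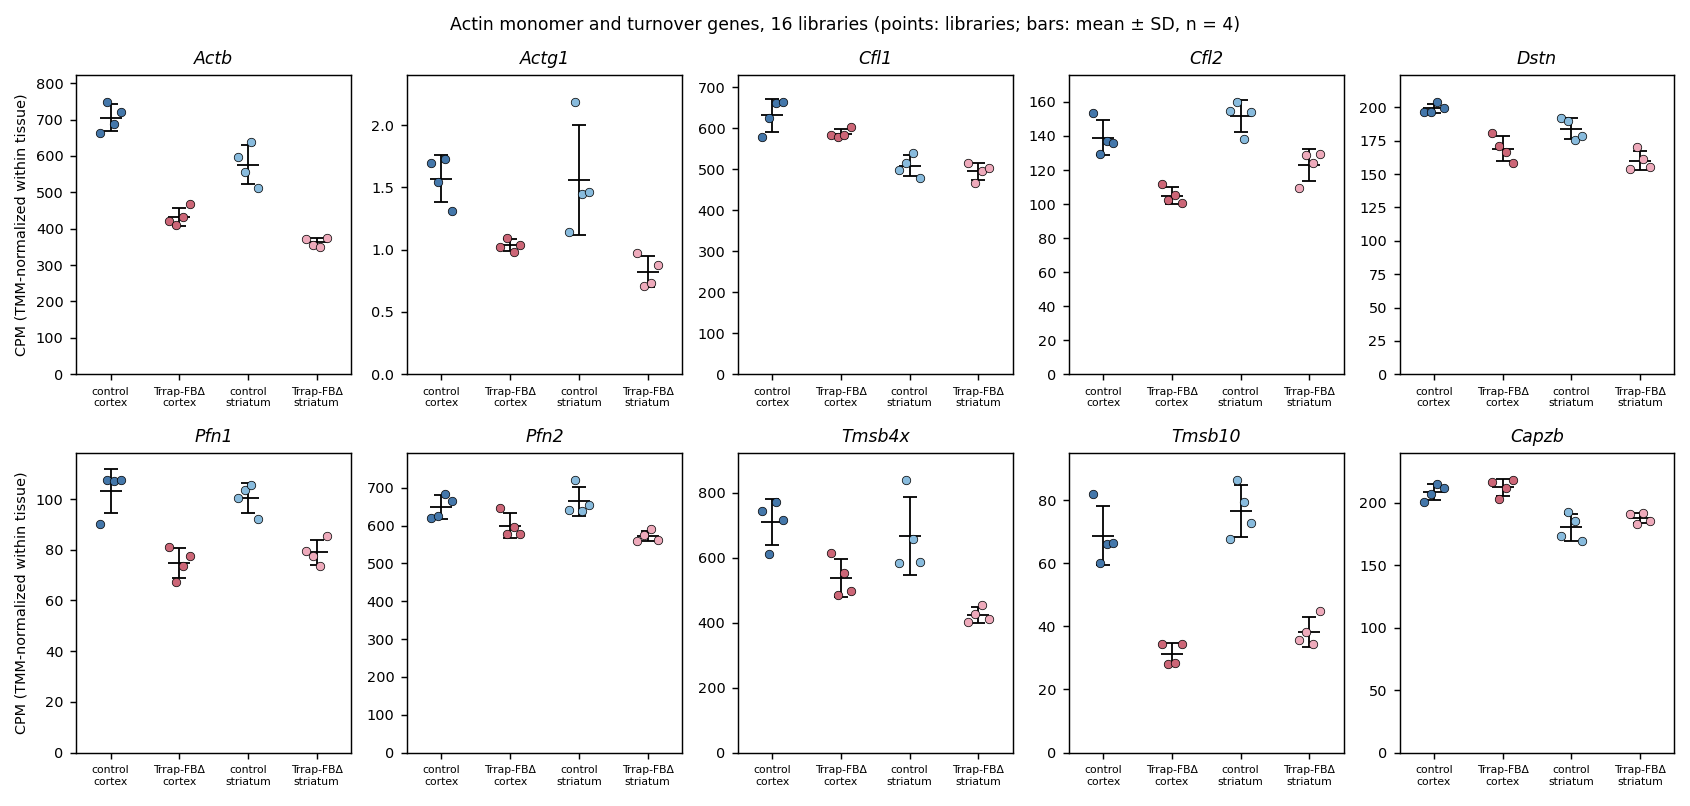
TMM-normalized CPM (linear axes from 0) of each gene in the 16 libraries. Points are libraries and bars are the mean ± SD of 4 libraries. Actb and Tmsb10 are set apart by genotype in both tissues, whereas the Capzb and Cfl1 groups overlap in both.

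Actb (ENSMUSG00000029580, chromosome 5, GRCm38 142903115 to 142906754, minus strand) encodes β-actin, the main monomer of non-muscle cells. Its level was 662, 749, 688 and 721 CPM in the cortices of control mice 55, 58, 63 and 64, and 421, 411, 433 and 467 CPM in those of Trrap-FBΔ mice 57, 59, 60 and 61. All 4 Trrap-FBΔ cortices lay below all 4 controls. The means were 705 ± 37.9 and 433 ± 24.5 CPM (SD, n = 4), a log2 fold change of -0.70 (SE 0.062, edgeR adjusted p = 2.83e-05). The striata of control mice 58, 63, 64 and 65 held 598, 555, 638 and 513 CPM of Actb, against 371, 356, 350 and 374 CPM in those of Trrap-FBΔ mice 57, 59, 60 and 61. Libraries are listed in this order of mice throughout. The groups were again apart, with a log2 fold change of -0.67 (SE 0.071, edgeR adjusted p = 0.000226). On the linear scale Actb fell by 38.6% in the cortex and by 37% in striatum.

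Actg1 (ENSMUSG00000062825, chromosome 11, 120345690 to 120348542, minus strand) encodes γ-actin, which differs from β-actin at few residues. It was counted at only 1.70, 1.54, 1.73 and 1.31 CPM in control cortices and 1.02, 1.10, 0.985 and 1.04 CPM in Trrap-FBΔ cortices, about 52 reads per library. The groups did not overlap and the log2 fold change was -0.59 (SE 0.14, edgeR adjusted p = 0.0089). In the striatum the values were 1.15, 2.19, 1.45 and 1.47 CPM in controls and 0.972, 0.709, 0.732 and 0.876 CPM in Trrap-FBΔ mice. There the log2 fold change was -0.93 (SE 0.21, edgeR adjusted p = 0.00844), with mouse 63 far above the other controls.

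Only reads that map to a single place were counted, so the Actg1 count is not a measure of all its RNA. Of the 51-base windows of its transcript, the length of a read, 56.7% also occurred in the annotated transcripts of 22 other genes, 12 of them pseudogenes. The closest is the pseudogene Gm12715, which held 970 of its 1902 windows. The share was 43% for Tmsb10, 22.7% for Cfl1, 13.3% for Actb and 1.14% for Cfl2, and no window of Dstn, Pfn1, Pfn2, Tmsb4x or Capzb was shared. Windows were matched on either strand, and overlapping genes were not left out, so a shared window is not always a lost read. Of the 523 shared windows of Cfl1, 371 occurred in a transcript of Snx32, and the 33 of Cfl2 in a noncoding transcript. Neither gene overlapped another on its own strand, whereas Actg1 overlapped 2 there, Gm23419 and Mir6935. Overlap on the other strand was not checked. Of the 1902 windows of Actg1, 824 occurred in no annotated transcript of another gene. Copies in the genome that carry no annotation were not searched. The coding sequences of Actb and Actg1 were identical at 1000 of 1128 bases (88.7%), with a longest identical run of 62 bases. Whether lost reads set the low Actg1 count was not tested.

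**Figure D2:**
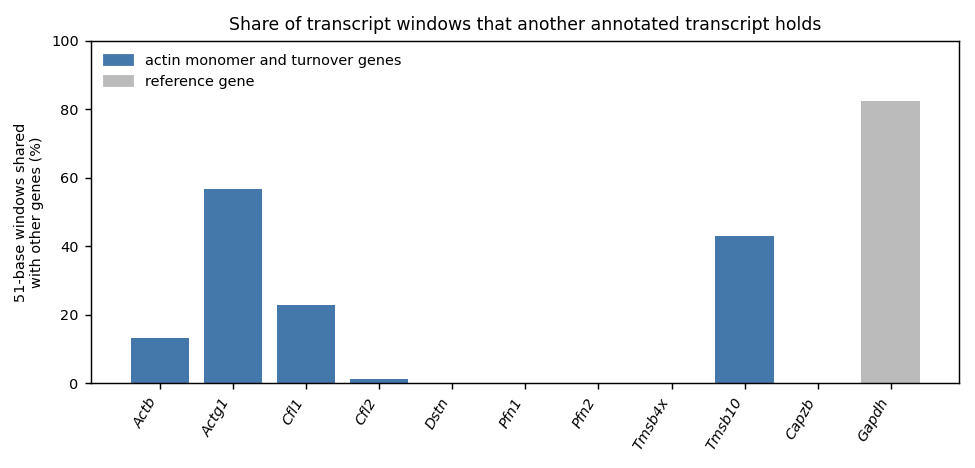
Share (%) of all 51-base windows in the main transcript of each gene that also occur in an annotated transcript of another gene, for the 10 actin genes (blue) and the reference gene Gapdh (grey). Actg1 stands at 56.7% and Gapdh at 82.4%, while Dstn, Pfn1, Pfn2, Tmsb4x and Capzb stand at 0.

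Of the monomer-binding genes, Tmsb10 changed most. Tmsb10 (ENSMUSG00000079523, chromosome 6, 72957347 to 72958748, minus strand) encodes thymosin β10, a monomer-sequestering peptide abundant in the developing brain. It was at 82, 60.1, 66.2 and 66.5 CPM in control cortices and 34.3, 27.9, 28.5 and 34.3 CPM in Trrap-FBΔ cortices. The highest Trrap-FBΔ cortex lay well below the lowest control, and the log2 fold change was -1.13 (SE 0.10, edgeR adjusted p = 2.77e-05). Striata gave 67.7, 86.4, 79.4 and 72.9 CPM in controls and 35.7, 38.4, 34.3 and 44.8 CPM in Trrap-FBΔ mice, also without overlap, with a log2 fold change of -1.0 (SE 0.096, edgeR adjusted p = 0.000165).

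Tmsb4x (ENSMUSG00000049775, chromosome X, 167207093 to 167209315, minus strand) encodes thymosin β4, the most abundant monomer-sequestering peptide of many cells. Control cortices held 744, 610, 771 and 716 CPM and Trrap-FBΔ cortices 614, 486, 552 and 499 CPM. The groups overlapped, since control mouse 58 lay just under Trrap-FBΔ mouse 57, and the log2 fold change was -0.40 (SE 0.09, edgeR adjusted p = 0.00573). In the striatum the controls held 584, 838, 657 and 586 CPM and the Trrap-FBΔ mice 401, 426, 455 and 410 CPM. Here the groups were apart, with control mouse 63 the highest, and the log2 fold change was -0.66 (SE 0.11, edgeR adjusted p = 0.00197). Tmsb4x lies on the X chromosome and the groups differ in their numbers of females and males. With sex as a covariate it was still called lower in both tissues.

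Profilins bind monomers and hand them to growing filament ends. Pfn1 (ENSMUSG00000018293, chromosome 11, 70651850 to 70654644, minus strand), the profilin of most tissues, was at 90.2, 107.5, 107.3 and 107.5 CPM in control cortices and 81.2, 67.3, 73.5 and 77.6 CPM in Trrap-FBΔ cortices. The groups were apart, although control mouse 55 sat below its group, and the log2 fold change was -0.46 (SE 0.070, edgeR adjusted p = 0.000617). In the striatum Pfn1 was at 100.3, 103.5, 105.4 and 92 CPM in controls and 79.4, 77.4, 73.8 and 85.3 CPM in Trrap-FBΔ mice, with a log2 fold change of -0.34 (SE 0.059, edgeR adjusted p = 0.00215).

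Pfn2 (ENSMUSG00000027805, chromosome 3, 57841895 to 57848079, minus strand), the neuronal profilin, was at 620.5, 625, 685 and 665 CPM in control cortices and 647.5, 579, 597 and 577 CPM in Trrap-FBΔ cortices. These groups overlapped, and the log2 fold change of -0.11 (95% interval -0.24 to 0.02) did not pass the test (edgeR adjusted p = 0.175). In the striatum the controls held 642, 721, 639.6 and 656 CPM and the Trrap-FBΔ mice 561, 574, 590.3 and 563 CPM. Those groups were apart and Pfn2 fell by 0.22 on the log2 scale (SE 0.057, edgeR adjusted p = 0.0173). Without Trrap-FBΔ mouse 57 the adjusted p was 0.0525, and with library totals alone it was 0.115.

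Among the severing proteins, Cfl2 and Dstn fell and Cfl1 did not pass the test. Cfl2 (ENSMUSG00000062929, chromosome 12, 54858809 to 54862877, minus strand), the cofilin known from muscle, was at 153.5, 129.5, 137 and 136 CPM in control cortices and 112, 103, 105 and 100.4 CPM in Trrap-FBΔ cortices. All Trrap-FBΔ values lay lower, and the log2 fold change was -0.40 (SE 0.057, edgeR adjusted p = 0.000392). The striata gave 155, 160.1, 138 and 154 CPM in controls and 109.5, 129, 124 and 129 CPM in Trrap-FBΔ mice, again apart, with a log2 fold change of -0.30 (SE 0.065, edgeR adjusted p = 0.00663).

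Dstn (ENSMUSG00000015932, chromosome 2, 143915320 to 143943324, plus strand) encodes destrin, also called actin depolymerizing factor. It was at 197, 196, 204 and 199.8 CPM in control cortices and 181, 171, 166 and 158 CPM in Trrap-FBΔ cortices. The difference was small beside that of Tmsb10, but larger than the spread, with a log2 fold change of -0.24 (SE 0.048, edgeR adjusted p = 0.00308). Striata held 192, 189.8, 176 and 179 CPM in controls and 154, 170.1, 161.5 and 155 CPM in Trrap-FBΔ mice, with a log2 fold change of -0.20 (SE 0.050, edgeR adjusted p = 0.0132). With library totals alone the striatal adjusted p was 0.101.

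Cfl1 (ENSMUSG00000056201, chromosome 19, 5490455 to 5495201, plus strand) encodes the main cofilin of non-muscle cells. It was at 579, 625, 661 and 665 CPM in control cortices and 585, 578, 583 and 603 CPM in Trrap-FBΔ cortices, with overlapping groups. The log2 fold change of Cfl1 was -0.11 in cortex (95% interval -0.23 to 0.02, edgeR adjusted p = 0.184) and -0.04 in striatum (95% interval -0.17 to 0.09, edgeR adjusted p = 0.634). Capzb (ENSMUSG00000028745, chromosome 4, 139192899 to 139291818, plus strand), the β subunit of capping protein, was at 200.3, 207, 215 and 212 CPM in control cortices and 216.5, 203, 212 and 218 CPM in Trrap-FBΔ cortices, which overlapped. For Capzb the log2 fold change was 0.03 in cortex (95% interval -0.07 to 0.12, edgeR adjusted p = 0.685) and 0.06 in striatum (95% interval -0.05 to 0.17, edgeR adjusted p = 0.405). The intervals of both genes leave out a loss of the size seen for Actb.

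**Figure D3:**
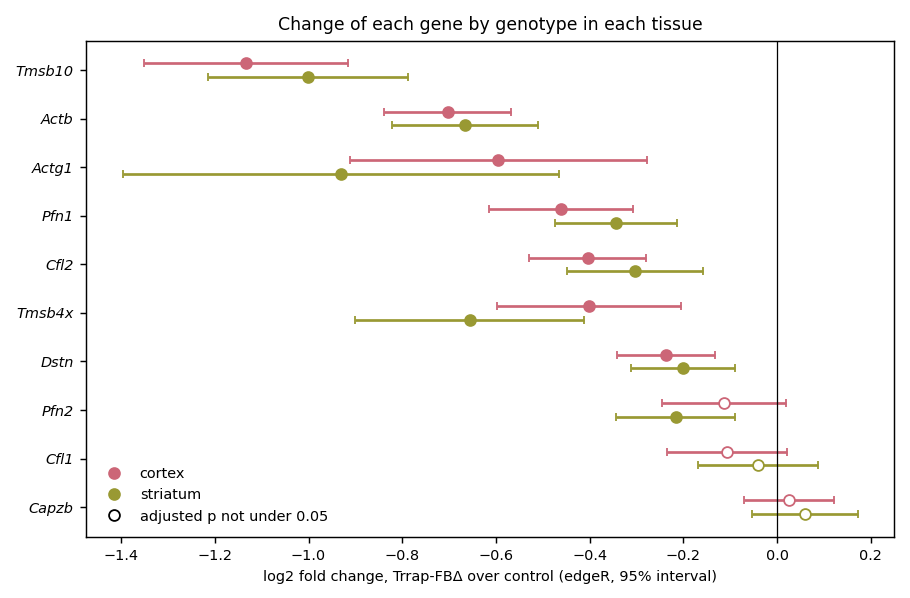
Log2 fold change of Trrap-FBΔ over control libraries in the cortex and the striatum, with 95% intervals from edgeR. Filled points passed the adjusted p of 0.05. Tmsb10 lies lowest in both tissues (-1.13 and -1.0), and the intervals of Cfl1 and Capzb include 0.

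The effect of the genotype was then compared between the tissues. None of the 10 genes passed the test of the difference (edgeR interaction), where 0.437% of 19438 genes were called (0.242% with a lower effect in the striatum and 0.195% with a higher one). At an unadjusted p under 0.05 edgeR had 0 of the 10 genes and 2347 over all genes. Over all genes the adjusted calls numbered 85 in edgeR, 219 with the mouse as a block and 422 in DESeq2, with 0 of the 10 genes among them each time. The intervals remain wide for some genes. For Tmsb4x the log2 fold change was lower in the striatum by 0.26 with a 95% interval from -0.57 to 0.06, and for Actg1 the interval ran from -0.87 to 0.19. For Actb the interval was -0.16 to 0.23.

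Between tissues, these genes were called about as often as all genes. Those that passed the main test were lower in the libraries labelled striatum. In controls 4 of 10 were lower and none higher, namely Cfl1 (log2 difference -0.43), Actb (-0.40), Capzb (-0.32) and Dstn (-0.23). Over all genes 22% were lower, 22.5% higher and 44.5% called in either direction. In Trrap-FBΔ mice 6 of 10 were lower, the same 4 with Tmsb4x (-0.46) and Pfn2 (-0.18), beside 25.9% of all genes lower, 26.5% higher and 52.3% called in either direction. With the mouse as a block, Pfn1 was also called lower in controls (-0.17, edgeR adjusted p = 0.0219) and Tmsb10 higher in Trrap-FBΔ mice (0.18, edgeR adjusted p = 0.0355). The calls in Trrap-FBΔ mice were not all stable. With upper quartile scaling Dstn and Pfn2 no longer passed (edgeR adjusted p = 0.0513 and 0.116) and Cfl2 was called higher in striatum (0.19, edgeR adjusted p = 0.0227), and without mouse 57 Pfn2 was lost (edgeR adjusted p = 0.0614) and Cfl2 again called higher. The oligodendrocyte markers were higher in striatum for 8 of 8 genes in both genotypes, and their part in these differences was not tested.

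Per kilobase of transcript, which allows genes to be compared, Tmsb4x was highest in control cortex at 961 ± 93 CPM per kb (SD, n = 4). Actb followed at 382 ± 21.7, then Pfn2 at 288 ± 14 and Cfl1 at 279 ± 18.2, whose ranges overlapped. Capzb, Pfn1, Dstn and Tmsb10 lay between 103.5 and 127 CPM per kb, each overlapping its neighbour, and Cfl2 stood at 49.1 ± 3.47. In Trrap-FBΔ cortex Tmsb4x still led at 728 ± 77.5, while Actb at 235 ± 13.5 ranked after Pfn2 at 266.5 ± 14.3 and Cfl1 at 259.5 ± 5.14. The ranges of Actb and Cfl1 did not overlap in either genotype. These levels depend on the transcript length assumed for each gene, and for Actg1, Tmsb10, Cfl1 and Actb on the windows that could be counted. Shared windows made up 13.3% for Actb, 22.7% for Cfl1 and 0% for Pfn2, and no level was corrected for them. The order of these 3 genes is therefore not settled.

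Ratios of related genes within a library need no scaling between libraries. In the cortex the log2 ratio of Tmsb10 to Tmsb4x was -3.37 ± 0.15 in controls and -4.11 ± 0.17 in Trrap-FBΔ mice, that of Cfl2 to Cfl1 was -2.19 ± 0.18 and -2.49 ± 0.08, and that of Pfn2 to Pfn1 was 2.66 ± 0.10 and 3.0 ± 0.09 (SD, n = 4). In each of these 3 ratios the groups did not overlap, which gives p = 0.029, the smallest an exact permutation test (2-sided) of 4 against 4 can give. After adjustment over the 10 ratios tested, the exact p was 0.095, so that 0 of 10 passed. Since 0.029 is the smallest p possible, these 3 could have passed only if more of the ratios had reached it. The ratio of Dstn to Cfl1 differed by -0.13 (cortex) and -0.16 (striatum), and that of Actg1 to Actb by 0.11 and -0.24, with overlapping groups. In the striatum the groups overlapped for the other ratios too. There the ratio of Tmsb10 to Tmsb4x was -3.11 ± 0.12 in controls and -3.47 ± 0.22 in Trrap-FBΔ mice (SD, n = 4), a difference of -0.36 (exact permutation p = 0.057). That of Cfl2 to Cfl1 differed by -0.27 (exact p = 0.086) and that of Pfn2 to Pfn1 by 0.13 (exact p = 0.17). Whether the ratios changed differently in the 2 tissues was not tested.

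**Figure D4:**
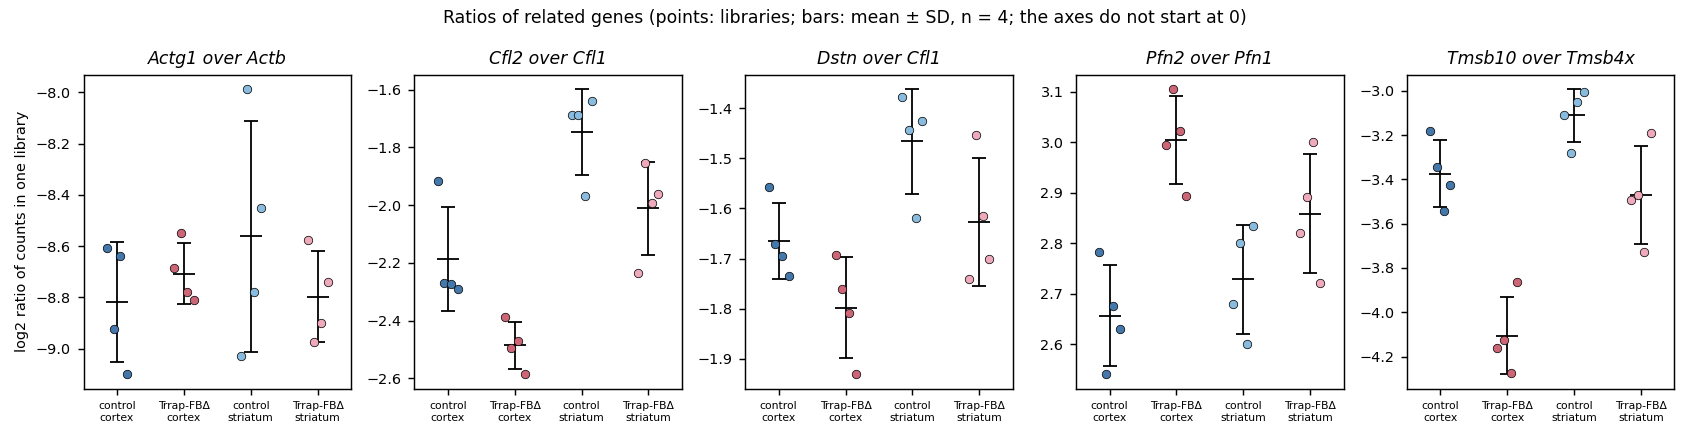
Log2 ratio of the counts of related genes in the same library, by tissue and genotype. Points are libraries and bars the mean ± SD of 4, and the axes do not start at 0. In the cortex the groups are apart for Cfl2 over Cfl1, Pfn2 over Pfn1 and Tmsb10 over Tmsb4x.

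Promoter sequences are shown for 3 genes that fell in both tissues and for Cfl1, which was not called, as the 250 bases before the start site in RefSeq (GRCm38.p6), 5′ to 3′. Capitals mark GGGCGG or its complement CCGCCC, the core of the GC box that Sp family factors bind. Of the 3 start sites listed for Tmsb10 the most upstream is shown.
Tmsb10, chr6:72958749-72958998, minus strand: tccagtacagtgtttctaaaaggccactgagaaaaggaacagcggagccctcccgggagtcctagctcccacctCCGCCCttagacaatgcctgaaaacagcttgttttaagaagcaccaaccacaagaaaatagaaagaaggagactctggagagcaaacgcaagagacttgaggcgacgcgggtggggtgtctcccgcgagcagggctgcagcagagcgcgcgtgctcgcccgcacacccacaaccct
Pfn1, chr11:70654651-70654900, minus strand: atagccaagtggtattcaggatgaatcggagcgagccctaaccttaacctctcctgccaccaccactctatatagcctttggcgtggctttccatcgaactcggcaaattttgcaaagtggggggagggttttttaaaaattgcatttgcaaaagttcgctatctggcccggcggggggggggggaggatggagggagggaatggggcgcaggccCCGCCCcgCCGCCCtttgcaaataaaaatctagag
Cfl2, chr12:54862878-54863127, minus strand: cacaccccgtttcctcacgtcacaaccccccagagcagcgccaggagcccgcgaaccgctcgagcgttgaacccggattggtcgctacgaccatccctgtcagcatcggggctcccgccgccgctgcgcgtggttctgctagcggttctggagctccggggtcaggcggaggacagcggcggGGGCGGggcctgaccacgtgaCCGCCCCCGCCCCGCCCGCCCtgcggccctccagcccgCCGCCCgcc
Cfl1, chr19:5490205-5490454, plus strand: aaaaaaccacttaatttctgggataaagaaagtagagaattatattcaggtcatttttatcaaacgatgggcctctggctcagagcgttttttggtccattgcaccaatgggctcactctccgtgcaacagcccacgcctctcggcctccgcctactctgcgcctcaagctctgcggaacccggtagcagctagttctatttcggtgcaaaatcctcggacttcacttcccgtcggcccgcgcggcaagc
Over the 300-base windows from 250 bases before to 50 after the start, all 9 genes with an entry held GGGCGG on one strand or the other, the called and the uncalled alike, and so did each of their 11 listed promoters, beside 35.7% of 32851 promoters. GGGCGG holds only G and C, and the share was not matched for their content. G and C made up from 52.7% (Tmsb4x) to 77.7% (Pfn2) of these promoters, beside a median of 52.7% over all promoters. Cfl2 held 8 matches, Actg1 6 and Dstn 4, with overlapping matches counted. The 2 matches of Cfl1 lay after its start. A CArG box, the site of serum response factor, was found in Actg1 alone, 90 bases before the start (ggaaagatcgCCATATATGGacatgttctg, with the box in capitals), beside 1.63% of all promoters. Actb had no entry.

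Genes of actin assembly beyond the 10 were counted by list, and no list was tested as a whole. Over all genes tested, 17.6% (cortex) and 15.8% (striatum) were lower, and 15.7% and 14.4% higher. Of 19 further genes for monomer binding and turnover, 9 fell and 2 rose in the cortex and 5 fell and 1 rose in the striatum. Coro2a, a coronin, fell by 1.01 on the log2 scale in the cortex (SE 0.068, edgeR adjusted p = 5.77e-06) and by 0.69 in the striatum, and Coro1a, a coronin of leukocytes and microglia, fell by 0.35 and 0.71. Pfn4 rose by 0.36 and 0.27. Of 17 further capping and severing genes, 9 fell in the cortex with none higher, and 7 fell and 1 rose in the striatum. Carmil3, a regulator of capping protein, fell by 0.59 and 0.41, and Tmod2, the neuronal cap of the slow-growing filament end, by 0.35 and 0.52. Add2, a neuronal adducin, fell by 0.14 and 0.48.

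The branching nucleator Arp2/3 had 4 of 10 genes lower in the cortex, 6 of 10 lower in the striatum and none higher. Arpc5 fell by 0.39 and 0.50 on the log2 scale, Arpc1b by 0.55 and 0.27, and Actr3 by 0.26 and 0.34. Of 15 WAVE and WASP genes, which switch Arp2/3 on, 3 fell and 2 rose in the cortex, near the shares over all genes, and 5 fell in the striatum. Of 16 formins and other nucleators, 6 fell and 2 rose in the cortex and 5 fell in the striatum. Cobl, a nucleator of dendrite branching, fell by 0.73 and 0.58. Of 13 kinases and phosphatases that set cofilin phosphorylation, 8 fell and 1 rose in the cortex and 4 fell in the striatum, with the phosphatase Ssh3 at log2 fold changes of -0.71 and -0.41. The kinases Pak3 and Rock1 fell by 0.34 and 0.22 in the cortex.

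Of 21 filament bundling and binding genes, 12 fell and 1 rose in the cortex and 8 fell and 1 rose in the striatum. Filamin A (Flna), a crosslinker, fell by 0.99 and 0.81 on the log2 scale, Tpm4, a tropomyosin, by 0.48 and 0.51, and Marcks by 0.59 and 0.31. Serum response factor (Srf), which drives actin genes, and its coactivator Mrtfa were not called in either tissue, while Mrtfb was called lower in the striatum (log2 fold change -0.31, edgeR adjusted p = 0.0425). Of the 3 muscle-type actins tested, Acta1 was higher in the cortex (log2 fold change 0.30, edgeR adjusted p = 0.0198) and the others were not called.

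The microtubule genes, to which these genes are the counterpart, fell further at their medians. Of 16 tubulin genes 10 fell and 2 rose in the cortex (median log2 fold change -0.51) and 9 fell and 2 rose in the striatum (median -0.43), and 4 of 4 stathmins fell in both (medians -0.87 and -0.77). Tubb5 fell by 1.35 and 1.16 and Stmn2 by 1.04 and 0.93. The difference between these lists and the actin genes was not tested. As with Actg1, tubulin counts depend on shared sequence, with 82.9% of the windows of Tuba1b shared.

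**Figure D5:**
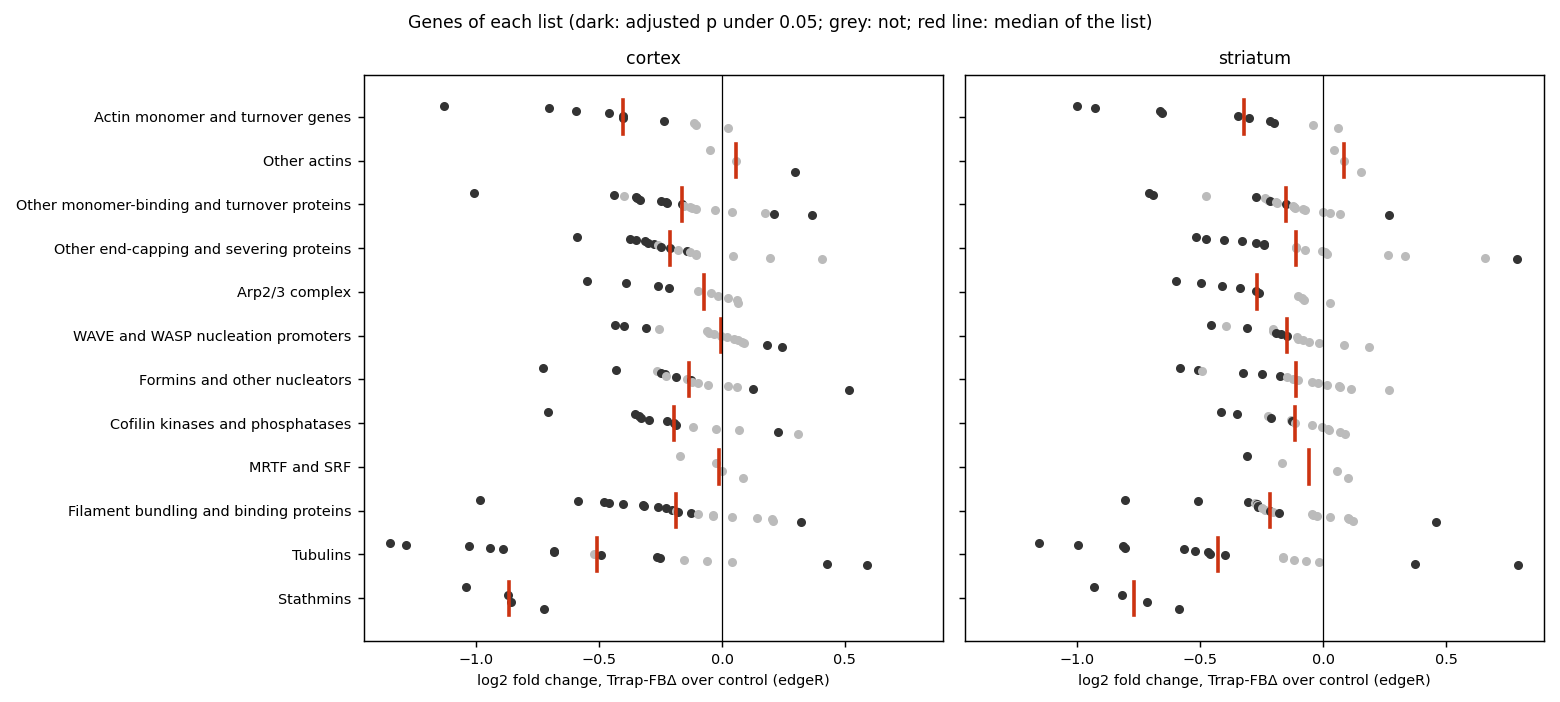
Log2 fold change of Trrap-FBΔ over control for each gene of the actin and microtubule lists, in each tissue. Dark points passed the adjusted p of 0.05, grey points did not, and red lines are list medians. The 10 actin genes have medians of -0.40 and -0.32, and the stathmins -0.87 and -0.77.

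Markers of other cell types were counted in the same way, beside 17.6% of all genes lower and 15.7% higher in the cortex and 15.8% and 14.4% in the striatum. Microglia markers were lower for 9 of 9 genes in the cortex, with a summed level of 399.6 to 449.5 CPM in controls and 292 to 364 CPM in Trrap-FBΔ mice, and for 6 of 9 in the striatum (326 to 398 and 279 to 293 CPM). Immature neuron markers were lower for 5 of 7 and higher for 1 in the cortex, at 3166 to 4078 and 1844 to 2167 CPM, and lower for 4 of 7 in the striatum. Dividing cell markers were lower for 5 of 6 in both tissues, and oligodendrocyte markers for 8 of 8 (cortex) and 3 of 8 (striatum). Excitatory neuron markers were lower for 2 of 7 (cortex) and 5 of 7 (striatum), and endothelial markers for 5 of 7 and 1 of 7, the last of these near the share over all genes. Astrocyte markers went both ways. Gfap and Gja1 were higher in both tissues, by 0.28 and 0.19 on the log2 scale in the cortex and by 0.57 and 0.23 in the striatum, while Aqp4 and Aldh1l1 were lower in the cortex (log2 fold changes -0.44 and -0.16), and 2 of 6 (cortex) and 4 of 6 (striatum) were not called. Of 6 interneuron markers 1 was higher in each tissue, Sst (cortex) and Gad2 (striatum), and of 9 mural cell and fibroblast markers 2 were lower in each. These counts too were near the shares over all genes. None of the 8 striatal projection neuron, 5 blood and 5 choroid plexus and ependyma markers was called in either tissue. The part of these cell types in the lower actin gene counts was not tested.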

How the data were processed

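Libraries of polyadenylated RNA were prepared with a stranded kit and sequenced as single reads of 51 bases. The authors aligned reads to GRCm38 with STAR 2.5.4b and counted uniquely mapped reads per Ensembl gene, by strand, with featureCounts 1.5.0, per the labels and the study's methods. The values deposited are raw counts, with no normalization. Of 53801 gene identifiers, 53620 had a symbol in the GENCODE annotation of that build.

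Genotypes were compared within each tissue (4 against 4 libraries) by edgeR 4.0.16 (R 4.3.3) with its quasi-likelihood F test, after filterByExpr and TMM normalization. Tissues and their interaction with genotype were tested over 16 libraries. Adjusted p-values are Benjamini-Hochberg over all genes tested, and 0.05 was the threshold. All 10 genes passed the filter. DESeq2 1.42.0 and limma-voom 3.58.1 were alternatives. The steps were tested on simulated data, where DESeq2 made more false calls than its threshold allows, while those of edgeR within each tissue were near it. DESeq2 was run on a single draw of the simulated data and edgeR on several. Ratios of log2 counts were tested by exact permutation.

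The 10 genes and all lists were chosen with earlier results of these data known. From each other list, up to 3 genes were named that were called in both tissues in one direction, with at least 50 counts on average, groups apart in both and the largest mean change. The genes Acta1, Srf, Mrtfa and Mrtfb fall outside that rule and were named after their values were seen. Same-numbered cortices and striata came from one mouse, and their deviations correlated with r from 0.0845 to 0.244 in 7 pairs, against -0.173 to 0.123 in 25 pairs of different mice. No 2 libraries of a group agreed within counting noise (chi-square over degrees of freedom from 8.26 to 44.6 in 24 pairs). Within a tissue each library is 1 mouse, and the p-values of the genotype tests cover the spread between mice. The main tests between tissues and of the interaction took the 16 libraries as independent, although 7 mice gave both tissues. The mouse as a block was an alternative for those tests. Results of some listed reference genes are not reported here.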

Additional observations from a re-analysis of the deposited data

Results flagged for a closer look

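The values of each gene and each ratio were checked in each group of 4 libraries for 1 library far from the rest, by the gap to its nearest neighbour over the whole range of the group. Of 60 such checks 3 passed the 95% limit, and chance gives about 1 in 20. Pfn1 in control cortices was at 90.2 CPM in mouse 55 and between 107.3 and 107.5 CPM in the other 3, a gap of 0.988 of the range. The log2 ratio of Cfl2 to Cfl1 in control cortices was -1.92 in the same mouse and -2.27 to -2.29 in the others, a gap of 0.947. In control striata the ratio was -1.97 in mouse 64 and -1.64 to -1.69 in the others, a gap of 0.848. Without mouse 55, Pfn1 and Cfl2 were still called lower in the Trrap-FBΔ cortex.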

How the results depend on the processing

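The actin genes called lower numbered 7 in the cortex under each of 11 alternatives of scaling, filter, tool, sex covariate, pooled fit and depth, and 4 when tested against a fold change of 1.2, where Actg1, Dstn and Tmsb4x were lost. In the striatum they numbered 8, but 6 with library totals (without Dstn and Pfn2) and 4 against a fold change of 1.2. Leaving out each library in turn gave 7 to 7 in the cortex and 7 to 8 in the striatum. The sign of each called gene held under all of these. Cfl1 in the striatum changed sign with library totals and was called under none. Between tissues the counts were 4 to 5 in controls, all lower in striatum. In Trrap-FBΔ mice they were 5 to 7, with 4 lower and 1 higher (Cfl2) under upper quartile scaling, 5 lower and 1 higher (Cfl2) without mouse 57, 6 lower and 1 higher (Tmsb10) with the block, and otherwise 6 or 7, all lower. Upper quartile scaling gave 6345 genes higher and 3912 lower in Trrap-FBΔ striatum against 5143 and 5031. With the mouse as a replicate block the pairing gave 5 and 7 in place of 4 and 6, and 0 interactions among the 10 genes, and changed no other call. Interactions over all genes numbered 85, 219 with the block, 422 in DESeq2 and 2 without mouse 59. No ratio passed under any alternative. With 3 or 4 libraries in a group, a ratio at the smallest exact p could pass the adjustment only if enough other ratios reached it too. Actg1 rests on about 50 reads per library. DESeq2 gave the same numbers of calls among the 10 genes as edgeR in every comparison. On simulated data, where it was run on a single draw, DESeq2 was the more liberal test.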

Other observations

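Several genes often used as reference standards were also called between the genotypes (edgeR adjusted p under 0.05). Over all genes tested, 33.3% (cortex) and 30.2% (striatum) were called in either direction. Gapdh and Ywhaz were lower in both tissues, with log2 fold changes of -0.25 and -0.27 in the cortex, and Tbp was higher in both (0.27 in the cortex). Rplp0 (-0.63) was lower by the call in the cortex, and Hprt (-0.19), Ppia (-0.30) and Pgk1 (-0.27) in the striatum. Sdha, Gusb and B2m were called in neither tissue, with a log2 fold change for Sdha of 0.05 (cortex) and 0.02 (striatum). The Gapdh count, like that of Actg1, leaves out reads from shared sequence, and 82.4% of its windows occur in other transcripts. Gapdh was counted at a mean of only 9.21 CPM in control cortex and 7.74 CPM in Trrap-FBΔ cortex. Shared windows made up 67.9% for Pgk1, 54.2% for Ppia, 41.1% for Rplp0, 19.8% for Ywhaz and 17.7% for Tbp. No window of Hprt, Sdha, Gusb or B2m was shared.

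Over the 16 libraries, the protein-coding genes whose log2 CPM ran most like that of Actb were Tgfb1i1 and Pik3cd (Pearson r of 0.98 each). Those nearest to Tmsb10 were Idh1 (0.99) and Hmgb3 (0.98), and those nearest to Cfl1 were Dnajb5 (0.99) and Bop1 (0.98). These are descriptions over libraries that share tissue, genotype and mice, out of 13765 genes compared.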
